A study of Mus musculus with 10 samples.

Results

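The interferon response genes Isg15, Ifit1, Ifit3, Irf7, Bst2, Ifi27, Ifitm1, Ifitm2 and Ifitm3 were followed across the cell classes of the aged mouse inner ear. They are 9 of the 32285 genes counted, and they are a list of symbols, with no threshold on measured values. The libraries came from wild-type CBA/J mice that were 22 months old, and each library pooled the sensory epithelia of several animals of both sexes. Cochlear and vestibular (utricle and crista) epithelia were dissociated and sequenced separately as single cells, so the groups differ in organ and share strain, age and genotype. Replicates 1, 3, 4 and 5 of each organ were used (n = 4 libraries per organ), since replicate 2 held the cells of replicate 1 again: all 1313 cochlear barcodes compared and 1633 of 1641 vestibular barcodes were shared. No treatment was given and young libraries were not analysed here, so the values describe old tissue only.

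Type I interferons act on the receptor pair Ifnar1 and Ifnar2, and the kinases Jak1 and Tyk2 then pass the signal on to the nucleus, where short GAAA-rich elements in the promoters of the target genes are bound. Interferon gamma acts through its own receptor. Irf7 is the transcription factor that amplifies the response, Isg15 is a ubiquitin-like protein that is joined to other proteins, and the Ifit proteins bind foreign RNA. Bst2 (tetherin) holds budding virus at the cell surface, the Ifitm proteins sit in membranes and hinder viral entry, and Ifi27 is a small mitochondrial protein. Many cells keep a low level of these genes without infection, and immune and stromal cells usually hold more than neurons.

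After removal of cells with fewer than 200 genes, fewer than 1000 unique molecular identifiers (UMIs, one per captured RNA molecule) or at least 25% mitochondrial UMIs, 571 to 5070 cells per cochlear library and 867 to 5438 per vestibular library remained, with 2061435 to 20118973 and 3335350 to 18899105 UMIs in all. Replicate 3 was the deepest library of both organs. Cells were clustered without the 9 genes and without the other interferon genes, and clusters were named from fixed markers, so each class name below stands for cells that were like that type: 70.2% of 7272 cochlear cells and 75.5% of 10424 vestibular cells received a name. HCs were recognised by Myo7a, Pou4f3 and Tmc1 and their relatives, and mesenchymal cells by Col1a1, Dcn and Otos and theirs. No cluster met the rule for endothelial or mural cells, so these are missing from the comparisons. Levels are given as CPM, the share of a gene among all UMIs of its class in a library on the usual counts-per-million scale, and intervals on shares of cells are exact binomial intervals that cover counting error only.

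The 9 genes lie on 5 chromosomes of GRCm38. Isg15 is on chromosome 4 (156199424-156200818), Bst2 on chromosome 8 (71534255-71537456) and Ifi27 on chromosome 12 (103434211-103440239). Ifit3 (34583531-34588731) and Ifit1 (34640871-34650009) neighbour each other on chromosome 19. Ifitm2 (140954837-140955987), Ifitm1 (140967221-140969825) and Ifitm3 (141009586-141010770) stand close together on chromosome 7, with Irf7 (141262706-141266481) on the same chromosome. Phrf1, on the opposite strand, overlaps an exon of Irf7, and Gm45717, on the same strand, overlaps an exon of Ifitm2. Ifit3 and Ifit1 have close paralogs (Ifit3b, Ifit1bl1). Reads may be split between the copies or the overlapping genes, and the values of these genes are uncertain to that extent.

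Promoter sequence is shown because most members with a promoter window hold the same short element there. The members were listed as interferon response genes, in which GAAA-rich elements are usual, so the counts are a description. The element searched, GAAA followed by any 2 bases and a second GAAA on either strand, was found in 1131 of 32851 RefSeq promoter windows (3.44%, from 250 bases before to 50 bases after a transcription start), in 6 of the 8 members with a window and in 23 of 68 other interferon genes (33.8%). The sequences below are from GRCm38.p6, run 5′ to 3′ on the strand of the gene, cover the 170 bases before the start, and carry the element in capitals. Isg15 holds it 3 times in overlap, Ifit1, Ifit3 and Bst2 hold it 2 times each (in Bst2 in overlap), Ifitm2 holds it once, and Irf7 and Ifitm1 do not hold these letters.
Isg15 (minus strand, chr4:156200819-156200988): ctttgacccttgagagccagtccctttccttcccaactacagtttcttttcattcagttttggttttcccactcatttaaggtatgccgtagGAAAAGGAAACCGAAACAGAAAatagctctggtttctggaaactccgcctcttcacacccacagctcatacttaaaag
Ifit1 (plus strand, chr19:34640719-34640888): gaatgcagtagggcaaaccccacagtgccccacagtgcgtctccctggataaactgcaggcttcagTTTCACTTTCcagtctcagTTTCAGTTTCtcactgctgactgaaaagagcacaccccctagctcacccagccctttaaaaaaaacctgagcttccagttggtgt
Ifit3 (plus strand, chr19:34583359-34583528): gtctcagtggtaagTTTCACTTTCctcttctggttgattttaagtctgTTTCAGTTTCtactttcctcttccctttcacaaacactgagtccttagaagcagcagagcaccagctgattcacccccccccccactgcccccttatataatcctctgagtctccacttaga
Bst2 (minus strand, chr8:71537473-71537642): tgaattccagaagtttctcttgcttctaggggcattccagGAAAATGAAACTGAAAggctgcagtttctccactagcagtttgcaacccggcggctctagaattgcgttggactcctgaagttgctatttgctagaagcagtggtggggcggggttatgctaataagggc
Ifitm2 (minus strand, chr7:140955962-140956131): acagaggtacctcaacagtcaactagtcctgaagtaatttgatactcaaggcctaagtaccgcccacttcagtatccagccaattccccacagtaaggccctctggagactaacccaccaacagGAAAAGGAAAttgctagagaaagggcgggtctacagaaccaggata
In Ifitm3 both copies follow the start, within its first 30 bases (minus strand, chr7:141010715-141010744): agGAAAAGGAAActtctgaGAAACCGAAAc
A match is a run of letters in these windows, and binding was not measured.

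In HCs of both organs most of the 9 genes were lower than in the other classes, and in vHCs Ifit1 was higher. Each class was tested against the mean of the other classes of its organ, on the log2 scale with the library as a term (edgeR quasi-likelihood test, Benjamini-Hochberg adjusted p under 0.05 over all genes tested). Among cHCs 6 of the 7 members that could be tested were lower and none was higher, where 17.5% of all genes tested were lower. Among vHCs 8 of 9 were lower, where 19.4% of all genes were, and Ifit1 was the one that was higher, where 38.5% of all genes were. The median difference of the members was -3.29 in cHCs and -2.60 in vHCs on the log2 scale, against 0.04 and 0.12 over all genes tested. Ifit3 and Irf7 had too few UMIs in the cochlea for the test. Without replicate 3 the cHC differences of Isg15 (-5.45) and Ifitm1 (-1.92) and the vHC difference of Ifitm1 (-3.78) could not pass, and neither could that of Irf7 in vHCs without replicate 5 (-1.33), since these genes then had no UMI in some class.

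**Figure D1:**
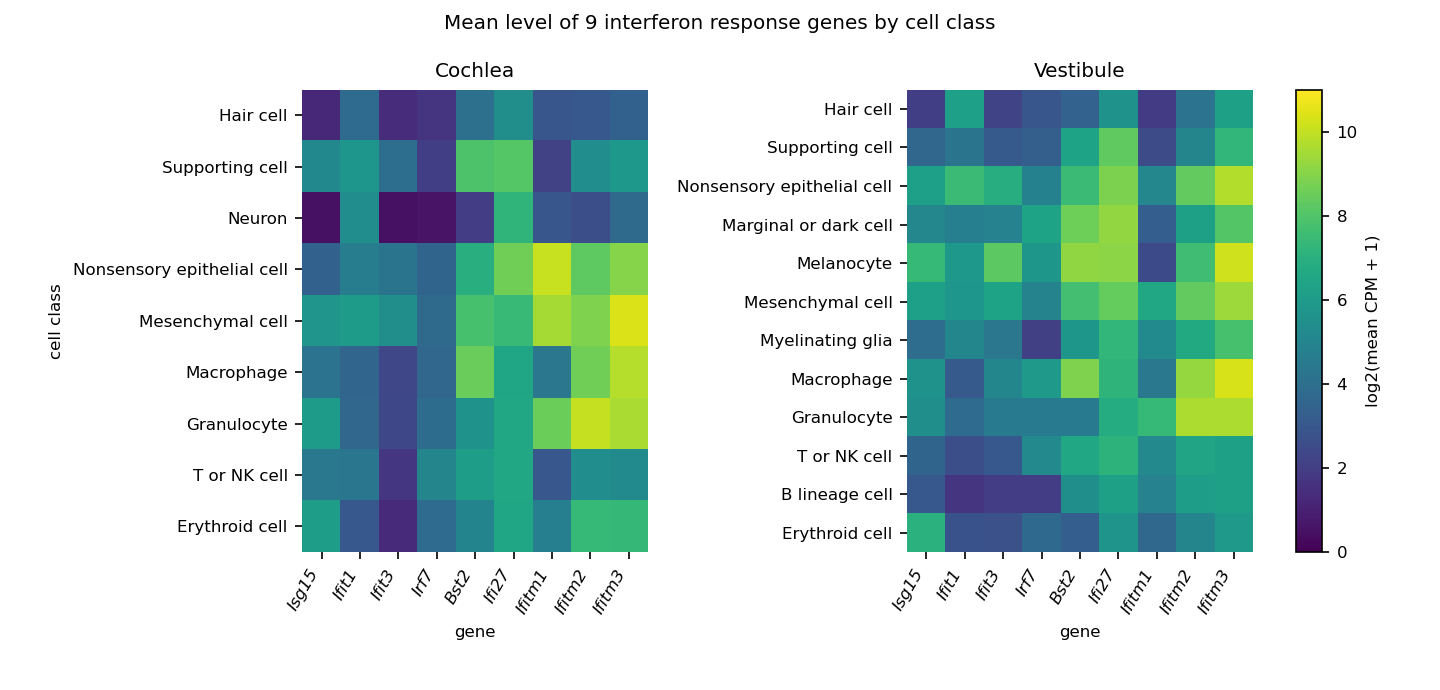
Mean level of each of the 9 genes (columns) in each cell class (rows) of the cochlea (left) and the vestibule (right), as log2 of the mean CPM plus 1 over libraries with at least 10 cells of the class; dark blue is low and yellow is high. HC rows are dark for most genes in both organs, vHCs are brighter in Ifit1 than cHCs, and the yellow fields are mostly Ifitm2 and Ifitm3 in mesenchymal cells, granulocytes and macrophages.

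Isg15 was close to absent from HCs. It was at 0, 5.55, 0 and 0 CPM in cHCs of replicates 1, 3, 4 and 5, which is 5 UMIs in all, and at 1.31, 5.47, 3.18 and 2.28 CPM in vHCs. Mesenchymal cells held 27.3, 85.1, 39.2 and 57.7 CPM in the cochlea and 103, 59.2, 96.1 and 37.1 CPM in the vestibule, above every HC value of their organ. The test gave -3.29 ± 0.66 (SE, adjusted p = 4.17e-05) for cHCs and -3.49 ± 0.57 (adjusted p = 2.1e-07) for vHCs. It gave +1.98 ± 0.27 (adjusted p = 1.28e-08) for cochlear and +1.38 ± 0.29 (adjusted p = 5.39e-05) for vestibular mesenchymal cells. The highest class means were in cochlear erythroid cells (70.0 CPM) and vestibular melanocytes (166 CPM), and neighbouring classes in the order of levels overlapped in their libraries in all 8 cochlear and all 11 vestibular steps. In vestibular erythroid cells, at 103, 249 and 34.8 CPM in replicates 3, 4 and 5, the difference was +4.29 ± 0.31 (adjusted p = 2.51e-20) after TMM scaling, and +2.33 when counts were scaled by library size alone.

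Ifit1 was higher in vHCs, though not in vHCs alone among the vestibular classes. Vestibular mesenchymal cells, at 34.4 to 75.7 CPM, overlapped vHCs and were also called higher. The Ifit1 level in vHCs was 59.1, 93.8, 71.2 and 65.4 CPM, and the test against the other vestibular classes gave +1.64 ± 0.34 (adjusted p = 1.97e-05). In cHCs it was 22.4, 12.2, 6.86 and 12.8 CPM, with a difference from the other cochlear classes of -0.86 ± 0.37 that did not pass (adjusted p = 0.0550). Each vHC value exceeded each cHC value, and the direct comparison of the organs within HCs gave +2.44 ± 0.31 (vestibule minus cochlea, adjusted p = 2.01e-06). Isg15 and Ifit3, which share the promoter element, did not follow Ifit1 into vHCs: Ifit3 was at 2.63, 9.03, 2.54 and 0.761 CPM there, with a test value of -2.48 ± 0.52 (adjusted p = 3.29e-05). In vHCs the Ifit1 UMIs of 4 libraries numbered 45, 343, 112 and 86, against 2, 33, 4 and 1 for Ifit3.

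The Ifit1 level also differed among HC types. Type I HCs, the flask-shaped receptors with calyx endings, held 73.8, 105, 71.6 and 78.3 CPM, and type II HCs, which carry bouton endings, held 6.08, 47.3, 69.3 and 27.2 CPM. The type II values lay below all type I values, closely so in replicate 4, and the paired difference within libraries was -1.11 ± 0.22 (type II minus type I, adjusted p = 7.14e-05). An Ifit1 UMI was found in 28.2% of 1305 type I HCs (25.8 to 30.7%) and in 12.4% of 322 type II HCs (9.03 to 16.5%), at median depths of 4326 and 4131.5 UMIs per cell. After every cell was thinned to 1000 UMIs the shares were 8.51% and 3.42%. B lineage cells, the vestibular class tested with the lowest Ifit1 mean (2.11 CPM), had an Ifit1 UMI in 0.848% of 236 cells. Their median depth was lower, at 2291.5 UMIs. As the lowest class of the same data, they are no independent measure of background.

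Among cHCs the inner HCs (IHCs) held 14.0, 4.91, 0 and 3.75 CPM of Ifit1 and the outer HCs (OHCs) held 40.4, 81.4 and 65.6 CPM in replicates 1, 3 and 5, the libraries with at least 10 OHCs. The OHC values, from 4, 7 and 3 UMIs, lay above those of the IHCs. The lowest of them lay below every vHC library, and those of replicates 3 and 5 lay within the range of the vHC libraries. Most cHC UMIs came from IHCs, with 815267 against 86021 from OHCs in replicate 3. The organ difference of Ifit1 in HCs therefore weighs IHCs most. The pair of IHCs and OHCs was not fixed for testing and only 76 OHCs were found against 146 IHCs, so the levels are a description.

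**Figure D2:**
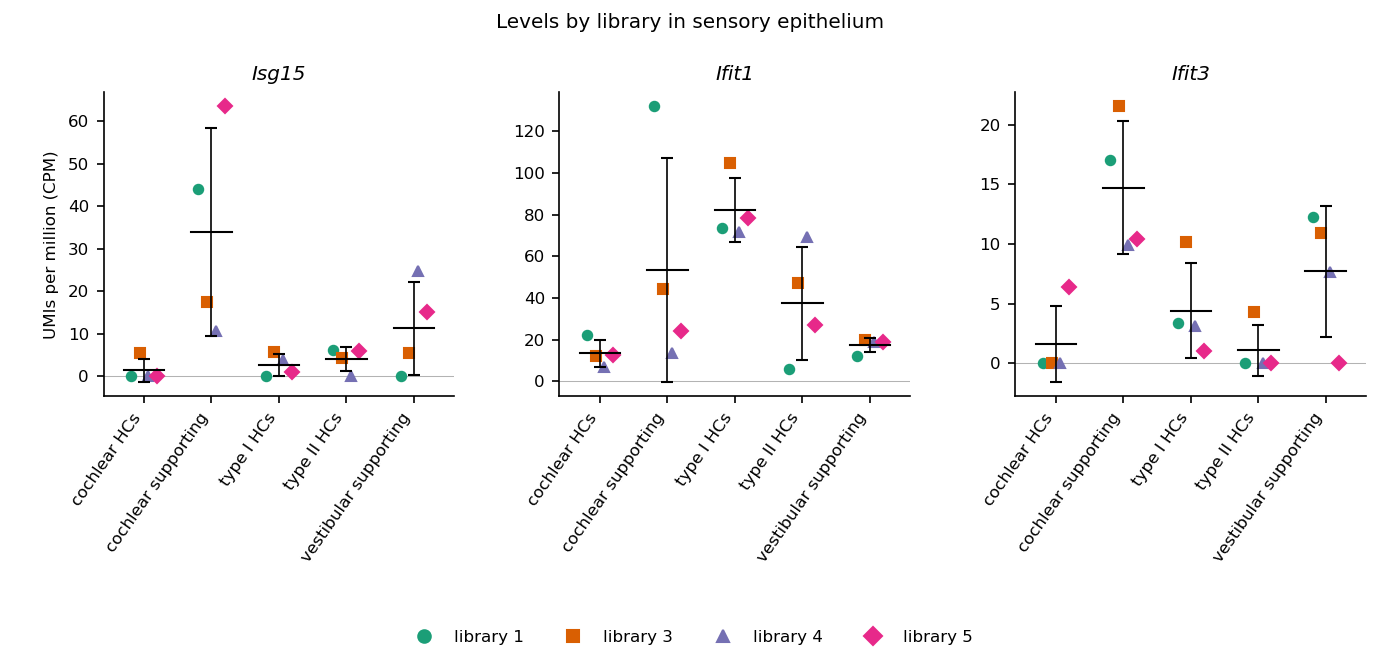
Levels (CPM) of Isg15, Ifit1 and Ifit3 in each library (points) of cHCs, cochlear supporting cells, type I HCs, type II HCs and vestibular supporting cells, with the mean (horizontal bar) and SD (whiskers) over 4 libraries. In the Ifit1 panel the type I points lie between 71.6 and 105, above the cHC points at 6.86 to 22.4, and no HC point of Isg15 or Ifit3 lies above 10.14.

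Supporting cells showed the opposite order of the organs for Ifit1. Their level was 132, 44.3, 13.7 and 24.0 CPM in the cochlea and 12.3, 19.8, 19.1 and 18.9 CPM in the vestibule. The organs overlapped, and the organ difference of -1.54 ± 0.54 only just passed (adjusted p = 0.0423); it was lost under 9 of 18 alternatives, among them leaving out cochlear replicate 1. Against the other classes of their organ, cochlear supporting cells were higher in Ifit1 by 1.51 ± 0.23 (adjusted p = 1.39e-07), while the vestibular value of -0.78 ± 0.57 did not pass (adjusted p = 0.301). Other classes with Ifit1 were mesenchymal cells, at 102, 86.4, 38.4 and 31.6 CPM in the cochlea and 55.6, 75.7, 46.9 and 34.4 CPM in the vestibule, and cochlear neurons at 101, 33.8, 16.5 and 12.5 CPM. Both mesenchymal classes passed the test (+2.19 ± 0.22, adjusted p = 1.29e-12, and +1.57 ± 0.37, adjusted p = 0.000236), and the neuron value of +0.66 ± 0.29 stood at the threshold (adjusted p = 0.0497) and was lost without replicate 1, 3 or 4.

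The highest mean of Ifit1 in the vestibule, 179 CPM, belonged to nonsensory epithelial cells and came from one library. Their levels were 638, 47.0, 12.2 and 19.96 CPM, and in replicate 1 the 133 Ifit1 UMIs sat in 5 of 63 cells, 98.5% of them in 3 cells. Ifit3 and Isg15 showed the same library and the same concentration, with 81 Ifit3 UMIs in 3 cells and all 53 Isg15 UMIs in 1 cell. The class test passed for Ifit1 with all libraries (+2.12 ± 0.41, adjusted p = 1.48e-05), and without replicate 1 it gave +0.38 (adjusted p = 0.402).

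Ifit3 had its highest level in vestibular melanocytes, pigment cells of the dark cell region, at 533, 243, 185 and 248 CPM. Every other vestibular class lay lower apart from that one nonsensory library, and the test gave +3.40 ± 0.39 (adjusted p = 5.76e-11). Melanocytes were also higher in Bst2, Ifi27, Ifit1, Ifitm3 and Isg15, which makes 6 of 9 members, where 11.6% of all genes tested were higher. Replicate 1 of this class, with few cells, stood above the others for Bst2, Ifitm3, Irf7 and Isg15. The Isg15 call was lost in 4 of 14 alternatives, among them leaving out replicate 1 (adjusted p = 0.104, the highest of the 14). Melanocyte Ifit1 was at 0, 175, 36.9 and 20.7 CPM, high in replicate 3, and its call was lost with DESeq2 and without replicate 3 (+0.06). Mesenchymal Ifit3 was 41.0, 72.7, 30.6 and 25.3 CPM in the cochlea and 103, 90.2, 91.3 and 42.3 CPM in the vestibule.

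Irf7, the amplifying transcription factor, was scarce everywhere, with 289 UMIs in all cochlear and 629 in all vestibular cells. The vestibular mesenchymal cells held 34.4, 23.8, 37.3 and 21.2 CPM and the cochlear ones 13.7, 14.96, 12.5 and 9.92 CPM. The groups did not overlap, and the vestibule was higher by 1.40 ± 0.26 (adjusted p = 0.00017). vHCs held 9.2, 7.66, 5.72 and 4.57 CPM and were lower than the other vestibular classes by 1.65 ± 0.50 on the log2 scale (adjusted p = 0.00301). In cHCs 4 Irf7 UMIs were found in all.

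Bst2 was high in macrophages of both organs, at 384, 288, 285 and 493 CPM in the cochlea and 677, 287, 454 and 473 CPM in the vestibule. The 2 organs overlapped here, and the class tests gave +2.40 ± 0.30 (adjusted p = 1.67e-09) and +2.58 ± 0.15 (adjusted p = 1.01e-24). cHCs held 16.0, 16.6, 17.2 and 12.8 CPM and vHCs 14.5, 7.93, 14.0 and 3.80 CPM, lower than the other classes by 2.67 ± 0.43 (adjusted p = 5.29e-07) and 3.6 ± 0.24 (adjusted p = 1.19e-22) on the log2 scale. In supporting cells Bst2 was at 156, 149, 188 and 482 CPM in the cochlea and 115, 65.5, 93.7 and 52.9 CPM in the vestibule, without overlap. The organ difference there was -1.68 ± 0.36 (adjusted p = 0.00164). In cochlear replicate 5, 53.5% of the 462 supporting cell UMIs of Bst2 came from 3 cells.

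Ifi27 was present in all classes tested. Its highest class mean was in nonsensory epithelial cells in the cochlea and in marginal or dark cells in the vestibule. Vestibular melanocytes ranked next, with a mean of 541 CPM against 459 CPM in nonsensory epithelial cells. Nonsensory epithelial cells held 320, 481, 426 and 356 CPM in the cochlea and 480, 528, 500 and 329 CPM in the vestibule, and vestibular marginal or dark cells, which secrete potassium into the endolymph, held 653, 602, 409 and 717 CPM. Supporting cells were higher than the other classes in both organs (+1.31 ± 0.17, adjusted p = 2.07e-09, and +0.70 ± 0.17, adjusted p = 0.000354). HCs had the lowest class mean of both organs, with 16.0, 46.6, 51.5 and 54.5 CPM in cHCs and 77.6, 47.3, 37.5 and 29.7 CPM in vHCs. In mesenchymal cells the vestibular level of 458, 276, 345 and 281 CPM lay above the cochlear level of 95.6, 197, 190 and 195 CPM in every library, and the organ difference was +1.19 ± 0.21 (adjusted p = 6.08e-05).

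The 3 Ifitm genes had unlike patterns. Ifitm3 was the most abundant member, with 16347 UMIs in cochlear and 16222 in vestibular cells, and Ifitm1 and Ifitm2 had 7167 and 7530 in the cochlea and 9121 and 7621 in the vestibule. Ifitm2 and Ifitm3 ran close to each other over classes and organs (Pearson r = 0.858 of log2 levels over 25 class and organ points, which share libraries), the highest of any pair of members.

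**Figure D3:**
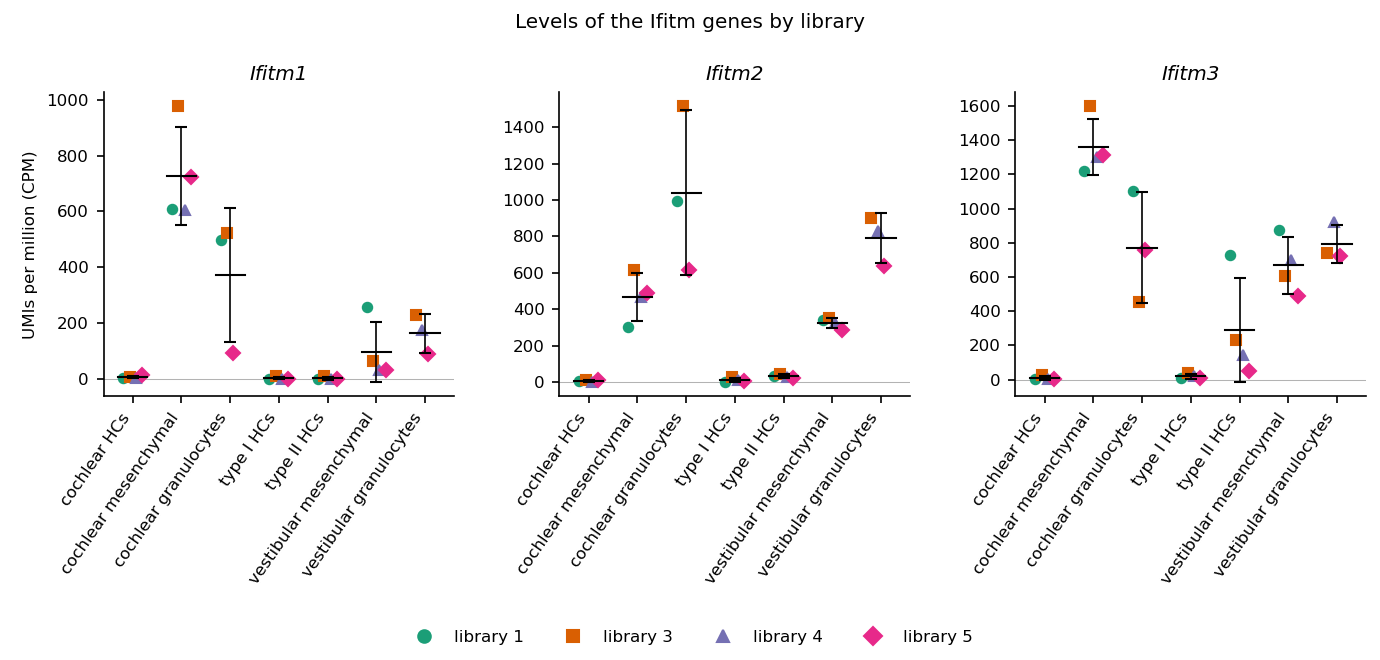
Levels (CPM) of Ifitm1, Ifitm2 and Ifitm3 in each library (points) of HCs, mesenchymal cells and granulocytes of the cochlea and the vestibule, with vestibular HCs split into types, and with the mean (horizontal bar) and SD (whiskers) over 3 or 4 libraries. Ifitm1 is highest in cochlear mesenchymal cells and Ifitm2 in granulocytes of the classes drawn, and Ifitm3 rises above the other HC groups in type II HCs, from 48.3 to 730.

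Ifitm1 was high in the cochlear cells named mesenchymal, at 608, 977, 604 and 721 CPM, against 257, 64.6, 32.6 and 31.8 CPM in the vestibular ones. The vestibular ones held only 97, 41 and 24 of the 586, 576 and 475 Ifitm1 UMIs of vestibular replicates 1, 4 and 5. Clusters without a class name did not enter the main comparison. No library of one organ reached those of the other, the class test gave +5.06 ± 0.36 (adjusted p = 3.81e-18) in the cochlea, and the organ difference was -2.86 ± 0.41 (adjusted p = 5.52e-06). Different clusters make up the class in the 2 organs, and the cochlear cluster led by Ccl11 and Scn7a had a mean of 2130 CPM while the other cochlear mesenchymal clusters had 420 and 499 CPM. When a vestibular cluster that was tied between classes and is also led by Ccl11 was counted as mesenchymal, the organ difference fell to -0.49 and did not pass (adjusted p = 0.163). In cochlear supporting cells Ifitm1 was at 5.68, 6.41, 1.52 and 0 CPM, lower than the other classes by 3.95 ± 0.64 on the log2 scale (adjusted p = 7.85e-07). Cochlear nonsensory epithelial cells held 3926, 194, 82.9 and 172 CPM, and in replicate 1 the 478 UMIs came from 7 of 36 cells, with 68.8% in 3 cells. The organ difference in this class was -4.99 ± 1.10 (adjusted p = 0.00495). It passed in the 17 alternatives that gave an adjusted p, with values that ran from -5.80 to -2.35.

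Ifitm2 was led by granulocytes, at 993, 1515 and 615 CPM in the cochlea (replicates 1, 3 and 5) and 903, 832 and 639 CPM in the vestibule (replicates 3, 4 and 5). These were far above the HCs, at 6.39, 12.2, 0 and 9.61 CPM and 10.5, 31.2, 14.6 and 12.2 CPM, and the granulocyte tests gave +3.96 ± 0.25 (adjusted p = 1.28e-19) and +3.78 ± 0.14 (adjusted p = 1.16e-36). Granulocytes were higher in 4 of 7 members in the cochlea (Ifitm1, Ifitm2, Ifitm3, Isg15), where 16.2% of all genes were. In the vestibule they were higher in 5 of 9 (with Irf7 besides), where 24.6% were. Vestibular Isg15 was lost without replicate 4 (+1.21, adjusted p = 0.0552) and with DESeq2. Both vestibular Isg15 and Irf7 were lost with library size scaling and without the library term. Ifit1 and Ifit3 did not pass in granulocytes of the vestibule (adjusted p = 0.780 and 0.546).

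Ifitm3 reached 1222, 1598, 1301 and 1314 CPM in cochlear mesenchymal cells, where the test gave +3.69 ± 0.26 (adjusted p = 2.04e-18). The vestibular mesenchymal level of 877, 605, 701 and 488 CPM lay lower in every library (organ difference -0.73 ± 0.21, adjusted p = 0.00763). This call too was lost with the tied cluster counted as mesenchymal (-0.28, adjusted p = 0.4545), and at the lower clustering resolution. In HCs the order of the organs was the other way round: cHCs held 6.39, 25.5, 3.43 and 3.20 CPM and vHCs held 166, 76.1, 42.6 and 18.3 CPM, with 1 cochlear library above the lowest vestibular one. The vestibule was higher by 2.31 ± 0.62 (adjusted p = 0.00556), and with cells under 10% mitochondrial UMIs this value missed the threshold (adjusted p = 0.0583).

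The vHC level of Ifitm3 lay mainly in type II HCs. These held 730, 231, 146 and 48.3 CPM, and type I HCs held 10.1, 39.6, 20.8 and 8.14 CPM, so each type II value lay above all type I values. In type II HCs of replicate 1, 3 cells held 65.8% of the 120 UMIs, and the level without them was 286 CPM. In replicate 5, 3 cells held 62.5% of the 16 UMIs. The level without them was 18.6 CPM, below the type I values of replicates 3 and 4. The difference between the types, with all cells, was +3.13 ± 0.23 (adjusted p = 1.17e-14). Ifitm2 (+1.04 ± 0.30, adjusted p = 0.00653) and Ifi27 (+0.87 ± 0.21, adjusted p = 0.00165; +0.62 without replicate 5, adjusted p = 0.0532) were also higher in type II HCs, so 3 of the 4 members that could be tested were higher and Ifit1 was lower, where 13.6% and 11.8% of all genes tested were. Supporting cells, which carried Ifitm3 at 209, 165, 166 and 79.4 CPM in the vestibule, share Sox2 with type II HCs, and whether their RNA or cells contribute to the type II value was not tested.

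Mesenchymal cells were the class in which every member that could be tested was higher than in the other classes: 7 of 7 in the cochlea, where 33.5% of all genes tested were, and 9 of 9 in the vestibule, where 34.6% were. Of these, cochlear Ifi27 (+0.50) was lost in 4 of 14 alternatives, among them leaving out replicate 4 (+0.33) or 5 (+0.31), and vestibular Irf7 (+1.01) with DESeq2. Their median difference was 2.19 and 1.55 on the log2 scale, against 0.19 and 0.21 over all genes. Cochlear neurons were lower in 5 of 7 members, where 24.8% of all genes were. Supporting cells split the list. In the cochlea Bst2, Ifi27, Ifit1 and Isg15 were higher (4 of 7; 31.7% of all genes) and the 3 Ifitm genes were lower (10.1% of all genes), and in the vestibule 6 of 9 were lower (7.69%) with Ifi27 as the one that was higher (33.0%). Without replicate 3 the cochlear Ifitm2 (-0.94, adjusted p = 0.0925) and Ifitm3 (-0.68, adjusted p = 0.381) calls were lost and Ifitm1 could not be called in either organ. Cochlear Isg15 was lost without replicate 5 (+0.22), with DESeq2 and without the library term, and vestibular Ifi27 (+0.30) and Irf7 (-1.05) were lost without replicate 5. Macrophages were higher in Bst2, Ifitm2 and Ifitm3 in the cochlea (3 of 7, 16.7%) and in these and Isg15 in the vestibule (4 of 9, 24.0%). The macrophage Isg15 call was lost with DESeq2 and without the library term. Nonsensory epithelial cells were higher in 4 of 7 members in the cochlea (Ifi27 and the 3 Ifitm genes; 22.1%) and in 6 of 9 in the vestibule (29.0%), of which Ifit1 and Ifit3 (+0.04) were lost without replicate 1.

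B lineage cells were lower in Bst2, Ifi27, Ifitm2 and Ifitm3 (4 of 9; 12.8% of all genes), with Bst2 and Ifitm2 lost without replicate 4 or 5, and T or NK cells in Ifitm2 and Ifitm3 in both organs (2 of 7; 8.57%, and 2 of 9; 8.72%). Without replicate 3 both cochlear T or NK calls and the vestibular Ifitm2 call were lost, and without replicate 5 both Ifitm2 calls. Marginal or dark cells were higher in Bst2 and Ifi27 (2 of 9; 11.3%) and lower in Ifitm2 (1 of 9; 6.77%), which was lost without replicate 4 (-0.94, adjusted p = 0.0733). Erythroid cells were higher in Isg15 and Ifitm2 and lower in Ifit1 in the cochlea (14.8% and 7.15%), and higher in Isg15 and Irf7 and lower in Bst2 in the vestibule (18.2% and 12.9%). The cochlear Ifit1 call rested on 1, 2 and 0 UMIs in replicates 1, 3 and 5 and was lost in 7 of 14 alternatives, among them leaving out replicate 3, 4 or 5. Cochlear Ifitm2 (+0.90) and vestibular Bst2 (-1.13) were lost without replicate 5. The Irf7 value of vestibular erythroid cells was +1.77 ± 0.49 (adjusted p = 0.00305), was lost without replicate 4 (+1.17, adjusted p = 0.172), and turned negative when counts were scaled by library size alone (-0.14). Ifit1 was lower in cochlear macrophages (-1.503 ± 0.553, adjusted p = 0.0383; 8.25% of all genes), which was lost without replicate 3 (-0.85) or 4 (-1.41), and turned positive without passing in both other clusterings (+0.26 and +0.17). Ifi27 was lower in vestibular macrophages (-0.69 ± 0.22, adjusted p = 0.00993; 10.0%), which was lost without replicate 5 (-0.49, adjusted p = 0.104), and Bst2 was lower in vestibular granulocytes (-1.61 ± 0.35, adjusted p = 0.000104; 19.2%). Ifit1 was the one member that was higher in neurons (32.8%). In myelinating glia no member passed (0 of 9 by edgeR, where 12.6% of all genes passed). Ifi27 (-0.87) and Ifitm3 (-0.99) were the ones with an unadjusted edgeR p under 0.05, at 0.0277 and 0.0290.

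A gene without a UMI in every library of some class cannot be called lower in another class by this test, which held for none of the members. Over the genes above 0 in every class, 20.5% were lower in cHCs and 26.7% in vHCs.

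Between the organs, the classes tested differed in which members moved. In HCs 2 of 5 members were higher in the vestibule (Ifit1, Ifitm3; 20.3% of all genes). In supporting cells 1 of 6 was higher (Ifitm3, +1.35 ± 0.36, adjusted p = 0.00956; 15.4% of all genes) and 2 were lower (Bst2, Ifit1; 11.4%). In mesenchymal cells 3 of 9 were higher (Ifi27, Irf7 and Ifit3, the last by 1.11 ± 0.28, adjusted p = 0.00336; 15.8%) and 2 were lower (Ifitm1, Ifitm3; 15.7%), and in nonsensory epithelial cells 1 of 5 was lower (Ifitm1; 7.79%). In macrophages, granulocytes, erythroid cells and T or NK cells none of 4, 6, 6 and 1 members passed, where 2.54%, 0.661%, 6.50% and 0.000% of all genes did. In macrophages Ifitm2 and Ifitm3 differed by +0.56 ± 0.32 and +0.49 ± 0.36.

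**Figure D4:**
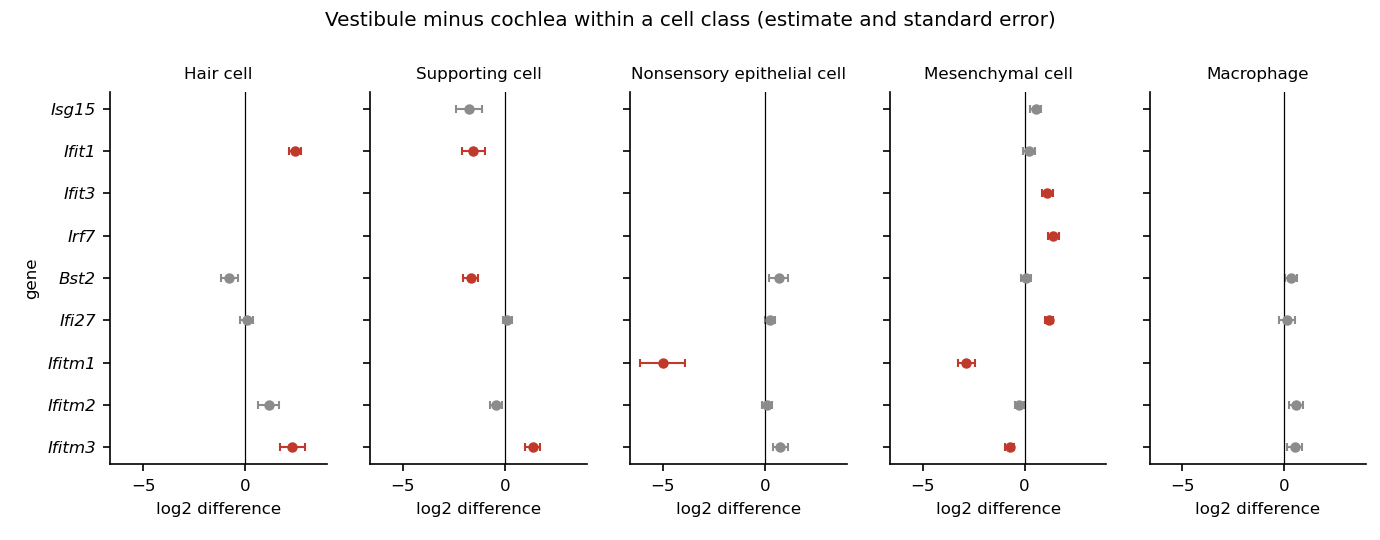
Difference between the organs (vestibule minus cochlea, log2, points, with bars of 1 SE) for each member that could be tested in 5 of the 8 cell classes; a gene without a point was not tested in that class. Red points passed an adjusted p of 0.05 and grey points did not: Ifit1 in HCs stands at +2.44 and Ifitm1 in mesenchymal cells at -2.86.

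The rest of the interferon pathway was followed with a list of 83 other genes in the files. The ligands were nearly absent: of 10 interferon genes, 6 had no UMI in any cochlear cell and 7 none in any vestibular cell, and the sums were 102 and 98 UMIs. Most of these were Ifnk (77 and 85), and the 12 Ifnb1 UMIs of the cochlea came from 1 cell. All 5 receptor genes tested were lower in HCs of both organs (17.5% and 19.4% of all genes). They were higher in macrophages (16.7% and 24.0%) and granulocytes (16.2% and 24.6%) of both organs. Ifnar1, one of them, was at 22.4, 11.1, 6.86 and 28.8 CPM in cHCs and 13.1, 13.4, 14.0 and 16.0 CPM in vHCs. Its difference from the other classes was -1.87 ± 0.30 (adjusted p = 7.82e-07) and -1.32 ± 0.24 (adjusted p = 2.15e-06).

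In all, 37 of 53 pathway genes were lower in cHCs (17.5% of all genes tested) and 1 was higher (28.1%). In vHCs 29 of 55 were lower (19.4%) and none was higher by this test (38.5%). Of the 53 and the 55, 14 and 26 had no UMI in some class of the organ, which keeps this test from calling them lower elsewhere. All 29 vHC calls and 34 of the 37 cHC calls of lower fell among the remaining genes. Over all genes above 0 in every class, 20.5% were lower in cHCs and 26.7% in vHCs. The gene that was higher in cHCs was Herc6, listed among the genes that join Isg15 to other proteins, at 19.2, 41.1, 37.8 and 25.6 CPM (+1.86 ± 0.37, adjusted p = 3.35e-05). Macrophages were higher in 32 of 53 and 38 of 55 pathway genes (16.7% and 24.0% of all genes). Mesenchymal cells were higher in 32 of 53 and 26 of 55 (33.5% and 34.6%), with 2 and 5 lower (13.1% and 11.2%). Mesenchymal cells of both organs were higher in effector genes (18 of 27 and 15 of 28, where 33.5% and 34.6% of all genes were). Of 5 receptor genes 1 was higher in each organ, and 1 was lower in the cochlea and 2 in the vestibule (13.1% and 11.2% of all genes).

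Between HCs of the organs, sensors of double-stranded RNA went against Ifit1. Tlr3, which senses it in endosomes, was at 16.0, 26.6, 17.2 and 19.2 CPM in cHCs and 1.31, 1.37, 1.27 and 0.761 CPM in vHCs (-4.02 ± 0.42, adjusted p = 1.54e-07). Ddx58 (RIG-I), which senses it in the cytoplasm, was at 25.5, 35.5, 20.6 and 32.0 CPM in cHCs and 11.8, 13.7, 10.2 and 3.04 CPM in vHCs (-1.56 ± 0.36, adjusted p = 0.00146). Herc6 was lower in vHCs by 2.19 ± 0.31 on the log2 scale (adjusted p = 8.51e-06). These genes did not overlap between the organs in any library, and of 14 pathway genes tested there 2 were higher (Ifi27l2a, Ifi30) and 4 were lower (with Ifnar2 besides), where 20.3% and 17.2% of all genes were.

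Among vHCs, type II HCs carried Tmem173 (STING, the adaptor of cytosolic DNA sensing) at 60.8, 34.4, 21.9 and 57.3 CPM, and type I HCs at 0, 0.338, 0 and 1.02 CPM from 2 UMIs. Samd9l, an interferon-induced inhibitor of translation, was at 85.2, 57.4, 36.5 and 72.4 CPM in type II and 5.03, 3.72, 0.77 and 5.09 CPM in type I HCs. Each type II value lay above each type I value for both genes, and the tests gave +6.28 and +3.99. Of 8 pathway genes tested between the types, 4 were higher in type II HCs (13.6% of all genes) and none was lower by this test (11.8%).

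Single cells in which the response genes occurred together were few. Cells with a UMI of each of Isg15, Ifit1 and Ifit3 numbered 98 of 7272 in the cochlea (1.35%, 1.10 to 1.64%) and 108 of 10424 in the vestibule (1.04%, 0.851 to 1.25%), and each library held some (0.855 to 1.50% and 0.419 to 1.27%). These cells held 4.69% and 1.99% of the UMIs of all genes. They held 39.6% and 38.4% of all Isg15 UMIs, a high share that follows from choosing them by this gene. Of the members that did not choose them, they held 20.4% and 20% of Irf7, 15.2% and 13% of Bst2, and 15.7% and 9.56% of Ifitm3 UMIs, down to 6.43% and 4.26% of Ifi27. These cells were not matched to others by class, so their class mix enters these shares. They were deeper than the other cells, with medians of 8897.5 against 2151 UMIs in the cochlea and 3671 against 2214.5 in the vestibule. With every cell thinned to 1000 UMIs, 16 and 39 such cells were left, 0.220% and 0.374%.

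**Figure D5:**
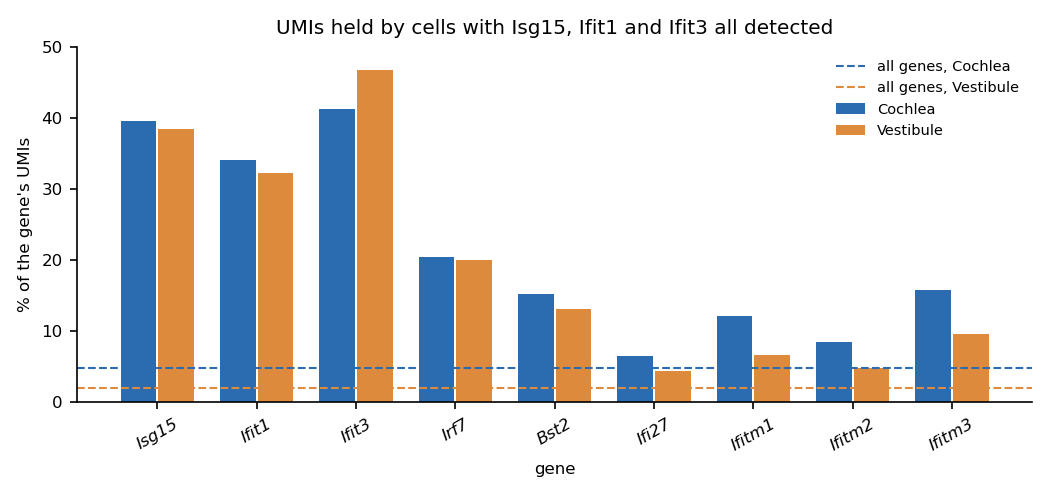
Share of each gene's UMIs (percent, bars) held by the cells with a UMI of each of Isg15, Ifit1 and Ifit3, by organ, with the share of all UMIs in these cells as a line. Every member lies above the line of its organ, at 4.69% for the cochlea and 1.99% for the vestibule. For Isg15, Ifit1 and Ifit3 this follows from the choice of the cells, so only the bars of the other members could have come out otherwise. The classes of these cells differ from those of all cells, which enters the bars and was not separated.

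Of these cells, 51 of the 98 cochlear ones were mesenchymal (3.22% of 1583) and 39 of the 108 vestibular ones (1.57% of 2488), and 8 were vestibular melanocytes (4.6% of 174). Clusters without a class name held 34 and 50 of them, and the highest share of any cluster or class was that of the vestibular cluster led by Ccl11 (26 of 249 cells, 10.4%, 6.94 to 14.9%). None of 222 cHCs, which allows a share of up to 1.35% with a floor of 3 cells (1.65% by the exact interval), and 1 of 1627 vHCs was among them. Of the other pathway genes with a UMI in these cells, 16 of 72 in the cochlea (22.2%) and 32 of 71 in the vestibule (45.1%) were higher in them than in the remaining cells in all 4 libraries, where 3.92% and 8.2% of all genes with a UMI in them were. The remaining cells were those of all classes together, so differences between classes enter these values and were not separated. In the vestibule Oasl2 was at 262.6 against 13.5 CPM, Rtp4 at 240.4 against 14.1 CPM and Usp18, which switches the receptor off, at 170.9 against 7.62 CPM. In vestibular mesenchymal cells with an Ifit1 UMI, Isg15 was at 421 CPM against 41.2 CPM in those without, and Ifit3 at 448 against 46.4 CPM. In type I HCs with an Ifit1 UMI, Isg15 was at 4.17 against 1.80 CPM and Ifit3 at 4.82 against 3.62 CPM, and the direction held in 2 and 1 of 4 libraries.

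The genes with the most similar pattern to each member were read from log2 levels over the 25 class and organ points that share libraries, among 9070 genes, as a description. For Isg15 these were Ifitm3 (r = 0.779) and Irf7 (r = 0.760), and for Ifit3 they were Rbpms (r = 0.868) and Ifitm3 (r = 0.836). Bst2 ran closest to Ifi35 (r = 0.901), another interferon-induced gene, and to Rras (r = 0.871), and Ifitm2 and Ifitm3 both ran close to Ier3 (r = 0.895 and 0.865). Ifit1 was nearest to Abhd14b (r = 0.789) and Ltbp3 (r = 0.787). Like Bst2, Ifi27, Irf7, Ifitm2 and Ifitm3, it had no member of the list among its 2 nearest genes. Ifi27 was nearest to Chpt1 (r = 0.859) and Capns1 (r = 0.841), Irf7 to Myh9 (r = 0.794) and Stat6 (r = 0.771), and Ifitm1 to Lbp (r = 0.792) and Ifitm2 (r = 0.772).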

How the data were processed

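Single cells of the sensory epithelia were profiled with a droplet 3′ assay. The deposited files hold raw UMI counts per gene and cell that the authors made with Cell Ranger against mm10 (version 6.1.2 in the submitters' processing notes; the file headers name 5.0.1 for replicates 1 and 2), and the counts were used as deposited. The submitters' notes also list Seurat, whose output was not used here. The 9 genes, the pathway list and the markers were chosen with earlier results of these data known. The genes named are all 9 members, the pathway genes with the largest called differences (up to 3 per test) and the 2 genes most like each member. Further pathway genes named in the text (Ifnar1, Ifnar2, Ifi30, Ifit3b, Oasl2, Rtp4 and Usp18) were picked after their values were seen. A withheld gene of the pathway list is not reported here by name.

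Barcodes passed with 200 or more genes, 1000 or more UMIs and a mitochondrial share under 25%, and were clustered per organ in Seurat 5.3.0 (R 4.3.3; 2000 variable genes without the interferon genes, 30 components, resolution 1, no integration). No doublet caller was run and free RNA was not removed. A cluster was named from at least 3 markers in at least 25% of its cells at a log2 fold of at least 1. Counts were summed per library and class with at least 10 cells, and classes with at least 3 such libraries were tested with edgeR 4.0.16 (low counts filtered with filterByExpr, TMM scaling), with the library as a term for classes and HC types and without it between organs. TMM scaling assumes that most genes do not differ. Each library pools animals, so p-values measure the spread between 4 pools per organ. On simulated counts with known log2 changes of 2, 88.2% (cHCs), 99.4% (vHCs), 100% (HC types) and 100% (mesenchymal cells between organs) of the changed genes were recovered, with 6.29%, 10.1%, 5.45% and 4.74% of calls false. The alternatives were DESeq2 1.42.0, library size scaling, no filter, each library left out, the mean of replicates 1 and 2, a 10% mitochondrial limit, interferon genes kept in clustering, resolution 0.5 and the other use of the library term. The 2 ways of naming clusters otherwise were added after the data were seen. Gene positions are from GENCODE M21 and promoters from RefSeq, both on GRCm38.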

Additional observations from a re-analysis of the deposited data

Results flagged for a closer look

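Among 144 groups of 4 libraries (a member in a class of one organ), 32 held 1 library that stood far from the other 3, with a gap to the nearest over 0.829 of the range. A rate of about 1 in 20 would hold for independent, normally distributed values. A group with its other libraries at 0 always passes, HC types are counted beside HCs, and members can share the same cells. The 32 therefore cannot be set against that rate. Of the 32, 15 of 63 were cochlear and 17 of 81 vestibular, and 16 were replicate 1. In vestibular replicate 1 they came mostly from classes with few cells or from a few cells. Its nonsensory epithelial cells held 638 CPM of Ifit1, 388.6 CPM of Ifit3, 86.35 CPM of Irf7 and 254.3 CPM of Isg15. Its 12 melanocytes held 1599 CPM of Bst2, 2932 CPM of Ifitm3, 207.3 CPM of Irf7 and 444.3 CPM of Isg15. Irf7 was at 169.3 CPM in its 10 macrophages (5 UMIs) and at 312.4 CPM in its 14 marginal or dark cells (11 UMIs in 3 cells). Ifitm1 was at 256.9 CPM in its mesenchymal cells, where 87.6% of 97 UMIs were in 3 cells, and Ifit1 was the lowest of the 4 in its supporting cells (12.3 CPM).

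In cochlear replicate 1, nonsensory epithelial cells held 3926 CPM of Ifitm1 and 32.85 CPM of Irf7, IHCs held 4.669 CPM of Ifitm1, and mesenchymal Ifi27 was low (95.59 CPM). In cochlear replicate 5, supporting cells held 481.7 CPM of Bst2, cHCs held 6.405 CPM of Ifit3 and IHC Bst2 was low (3.753 CPM).

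Replicate 3, the deepest library, was the high one in classes where the others were at or near 0. In its cochlear neurons Ifit3 and Isg15 were at 1.611 CPM each, Irf7 at 2.014 CPM and Ifitm3 at 47.13 CPM. Its cHCs held 5.548 CPM of Isg15 and 25.52 CPM of Ifitm3, its IHCs 3.68 CPM of Isg15, and its cochlear macrophages 16.48 CPM of Ifit3. In the vestibule, Ifitm1 was at 9.848 CPM in vHCs, 9.466 CPM in type I HCs, 11.47 CPM in type II HCs and 18.42 CPM in melanocytes, and Ifit3 at 4.301 CPM in type II HCs.

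For 3 pairs of classes every library of one organ went one way and every library of the other the opposite way (mean log2 difference of the classes ± SD, n = 4); these differences between organs were not tested. Ifit1 in HCs against mesenchymal cells was -2.11 ± 0.63 in the cochlea and 0.473 ± 0.356 in the vestibule, 2.58 apart. Ifit1 in HCs against supporting cells was -1.51 ± 0.789 and 1.99 ± 0.23, 3.5 apart. Ifitm3 in mesenchymal against nonsensory epithelial cells was 1.61 ± 0.962 and -0.34 ± 0.124, a difference of -1.95.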

How the results depend on the processing

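Main counts of member calls were 25 higher and 18 lower of 63 tests in cochlear classes (23.1% and 12% over all genes). Vestibular classes had 36 and 24 of 108 (22.1% and 10.4%), and HC types had 3 and 1 of 4 (13.6% and 11.8%). The organ tests had 6 and 5 of 42, where 12.2% and 10.9% of the tests of all genes passed. Pooled over classes, the organ calls of members were therefore about as frequent as those of all genes. Between organs, 3 were lower with DESeq2, which gave no adjusted p for Ifitm1 in nonsensory epithelial cells (-5.016), 13 were higher with no filter on low counts, and 3 were lower with the tied vestibular cluster counted as mesenchymal. In cochlear classes 7 were lower without replicate 3, where Isg15 and Ifitm1 had no UMI left in some class and could not be called, and Ifitm2 and Ifitm3 in supporting and T or NK cells and Ifit1 in erythroid cells and macrophages missed the threshold. Leaving out 1 library gave 24 to 30 higher and 7 to 25 lower in the cochlea, 30 to 38 and 18 to 26 in the vestibule, 2 to 3 higher and 1 to 1 lower between HC types, and 6 to 9 and 4 to 6 between organs. The sign turned for Ifit1 in cochlear macrophages (0.2569 with interferon genes kept in clustering, 0.17 at resolution 0.5) and for Irf7 in vestibular erythroid cells (-0.1432 with library size scaling); the cause was not tested. Library size scaling moved the median of all genes by -1.77 in vestibular and -0.701 in cochlear erythroid cells. DESeq2 kept 107 of 117 calls, library size scaling 109 of 118, and the 10% mitochondrial limit 110 of 115. Of the shares of cells with a UMI, 205 moved and 56 did not when cells were thinned.

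The library term was left out of the class and HC type tests as an alternative to this replicate block: 90 of 107 calls were kept, and 1 member was higher between HC types. Between organs the labels tie no animals or batch to a replicate number. Of 20 same-numbered pairs 9 correlated over 0.1 (all from 0.00712 to 0.273) and 17 correlated best with their own number, a hint from the data that numbers may mark something shared, and the fit with the replicate block kept all 11 calls.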

Other observations

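Clusters that received no class name also carried interferon response genes, and these values entered no comparison. A vestibular cluster of 249 cells led by Ccl11, Osr2 and Mfap5 was tied between mesenchymal and endothelial markers. Over 4 libraries it held 304 ± 224 CPM of Isg15, 183 ± 193 CPM of Ifit1, 193 ± 142 CPM of Ifit3, 1822 ± 465 CPM of Ifitm1 and 1873 ± 1226 CPM of Ifitm3 (mean ± SD).

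Granulocytes formed 2 clusters in the vestibule. Over 3 libraries, one held 492 ± 105 CPM of Ifitm1 and 1715 ± 199 CPM of Ifitm2, and the other held 12.7 ± 7.0 CPM and 377 ± 31.3 CPM, so the libraries of the clusters did not overlap for either gene. The vHC clusters had Ifit1 means of 114, 93.9, 63 and 37.5 CPM. Vestibular replicate 1 was the highest of the libraries in 34 of 63 pairs of a member and a class, and cochlear replicate 3 in 29 of 54.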
